A study of Mus musculus with 6 samples.

Results

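Smooth muscle contracts through actin filaments decorated with tropomyosin and regulatory proteins, which slide on smooth muscle myosin once myosin light chain kinase has phosphorylated the myosin. The genes of this apparatus share a regulator: serum response factor (SRF) binds a short DNA element, the CArG box, and its cofactor myocardin, present in smooth muscle and in heart muscle, makes SRF act on muscle genes. In the developing heart this apparatus marks the smooth muscle of the coronary vessels and of the great vessel roots, and several of its genes are also used by embryonic heart muscle cells.

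The set described here holds 10 genes taken by name: the regulators Srf and Myocd, the filament genes Acta2, Myh11 and Tpm2, the kinase gene Mylk, and the filament-associated genes Tagln, Cnn1, Smtn and Lmod1. All 10 were found among the 25006 genes listed for each of the 6 libraries, and all 10 passed the filter on low counts, which left 14815 genes for testing. The libraries held total RNA of ventricles dissected from E17.5 NMRI mouse embryos, 3 labelled as wild-type controls and 3 labelled VecadcreERT2; Prox1f/f, called null-labelled here. In that genotype a tamoxifen-inducible Cre recombinase driven by the VE-cadherin promoter, which is active in endothelial cells at large and not in lymphatic vessels alone, is meant to delete Prox1, the transcription factor that sets lymphatic identity. Per the labels' protocols, tamoxifen was given to pregnant females at E13.5 and again at E14.5, 5 mg for each 40 g that the animal weighed, with no separate schedule for controls, and the breeding pairs carried floxed Prox1 on both sides although the controls are labelled wild type. Cre is named for the null-labelled libraries only, so effects of Prox1 loss and of Cre cannot be told apart. Nothing in the labels tells whether replicate libraries are separate embryos or pools. The p-values here thus reflect the spread among these samples only, part of which may be technical. Both sexes were called within each group, as given below, so the libraries of a group were not all repeats of a single sample.

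Total counts ranged from 35195544 to 44330594 per library. Prox1 itself had 143 to 149 scaled counts in each 1000000 (CPM, by the trimmed mean of M values) in controls and 160 to 168 CPM in null-labelled libraries (log2 fold change 0.15 ± 0.03, adjusted p = 0.0331; the call was lost in 9 of 19 alternative settings), so it was not lower under the null label. Heart muscle cells also express Prox1, and whole-gene counts take in exons that a deletion may leave. Esr1, the mouse counterpart of the human receptor fragment that CreERT2 carries, had 9 to 19 counts in controls and 244 to 298 in null-labelled libraries. Y-linked genes summed to 4.95 CPM in control 3 and 5.23 CPM in null 2, and both were called female. The other libraries, at 229 to 253 CPM, were called male and make up the male-only fit below. Null 1 and null 3 held Y-linked counts together with Xist at 3.20% and 9.95% of the level in the libraries called female, and the calls without both are given below for the members and for the pathway genes. Ventricular heart muscle markers were present throughout, with Myl2 between 8390 and 9163 CPM. Libraries also differed in markers of large vessel walls: Eln, the elastin gene, had 264, 1162 and 2099 CPM in controls 1 to 3 and 1079, 327 and 313 CPM in null 1 to 3. In such bulk samples, fewer cells of a type and less RNA per cell cannot be told apart.

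The CArG box is the element through which SRF binds its target genes, and the Srf promoter is shown because SRF acts on its own gene. RefSeq promoter windows of build GRCm38.p6, from 250 bases before to 50 bases after the annotated start, were found for 7 of the 10 members; Myocd, Myh11 and Tagln had no entry in the table. The 250 bases before the start of Srf, on the minus strand at chr17:46556163-46556412, are printed here with each element in capitals, the first 2 being exact CArG boxes and the third differing from one at a single base.
Srf: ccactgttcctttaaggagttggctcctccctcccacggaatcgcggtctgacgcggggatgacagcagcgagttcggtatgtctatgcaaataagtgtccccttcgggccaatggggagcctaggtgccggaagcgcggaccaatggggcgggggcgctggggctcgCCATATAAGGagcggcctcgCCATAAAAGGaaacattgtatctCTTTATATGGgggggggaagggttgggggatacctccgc
The elements of Srf began 82, 62 and 39 bases before the start. An exact CArG box, searched by its name's pattern, which reads the same on both strands, was present in 1 of the 7 member windows, and in 1.63% of the 32851 windows in the table. With 1 substituted base allowed, 3 of the 7 had an element, Srf, Acta2 and Lmod1, against 21.1% of all windows.

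Acta2 and Lmod1 are the members whose windows hold only elements with 1 substituted base. The exact box of Actc1, the cardiac actin gene, is shown for comparison. The Actc1 window also held 3 elements with 1 substituted base, not printed here. That at 175 bases before the start has the same letters as the Acta2 element at 84 bases. The windows of Acta1 and Actg1 held an exact box as well. Each line gives the element in capitals with 10 bases on either side.
Acta2, 84 bases before the start (chr19:34255438-34255467, minus strand): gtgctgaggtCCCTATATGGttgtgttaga
Acta2, 34 bases before the start (chr19:34255388-34255417, minus strand): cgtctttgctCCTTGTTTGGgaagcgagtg
Lmod1, 189 bases before the start (chr1:135324614-135324643, plus strand): gcccccttgtCTTTAAAAGGctaaactgct
Lmod1, 164 bases before the start (chr1:135324639-135324668, plus strand): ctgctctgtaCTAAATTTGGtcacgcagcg
Actc1, 47 bases before the start (chr2:114052903-114052932, minus strand): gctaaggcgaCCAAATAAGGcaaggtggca
The windows of Tpm2, Mylk, Cnn1 and Smtn held neither form. The Mylk window, at chr16:34784700-34784999, lay inside the gene, whose GENCODE M21 start on the plus strand is 34745210. That of Smtn, at chr11:3539243-3539542, also lay inside its gene, which ends at 3540612 and lies on the minus strand. The sequence before the outer start of each of these genes was thus not searched. A match is only a description of these letters, and no match says only that they are absent from this window.

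The members lay at very different levels. Per kilobase of exon, Acta2, the smooth muscle alpha actin gene, was the highest in controls at 344 ± 92.1 CPM per kb (SD, n = 3), followed by Srf at 65.2 ± 2.41, Tpm2 at 55.6 ± 4.56 and Smtn at 39.4 ± 0.439. Tagln, Myocd and Cnn1 came next at 29.9 ± 14.3, 29.6 ± 0.500 and 27.2 ± 8.38 CPM per kb, then Myh11 at 5.31 ± 1.41, Mylk at 4.47 ± 0.384 and Lmod1 at 1.17 ± 0.822. The control libraries of Smtn and Tagln overlapped, as did those of Tagln and Myocd, of Myocd and Cnn1 and of Myh11 and Mylk, so these neighbours do not differ beyond their spread; the other neighbours in this order did not overlap.

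Of the 10 members, 2 fell in null-labelled ventricles, 0 rose and 8 did not pass (edgeR quasi-likelihood test, Benjamini-Hochberg adjusted p under 0.05 over all genes tested). Among all genes tested 5.41% were called, 2.98% as lower and 2.43% as higher. DESeq2 called the same 2 members, and limma-voom Tpm2 only, with 0 higher in either. The members that fell were Tpm2 and Smtn. All 10 estimates lay below 0, with a median log2 fold change of −0.37 against −0.0040 over all genes tested, of which 51.2% lay below 0. The members were chosen with earlier results of these data known, so this comparison is a description only. The members' median was −0.16 without control 3, and in male libraries only it was −0.084 with 7 of 10 below 0. In 4 members, Srf, Myh11, Tpm2 and Smtn, every null-labelled library was below every control, which held for 13.9% of all genes, while 26.6% did not overlap in either direction. The same 4 had an unadjusted p under 0.05, as did 20.5% of all genes, 10.9% as lower. The number of members called was 1, Tpm2 alone, without null 1 and null 3.

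**Figure D1:**
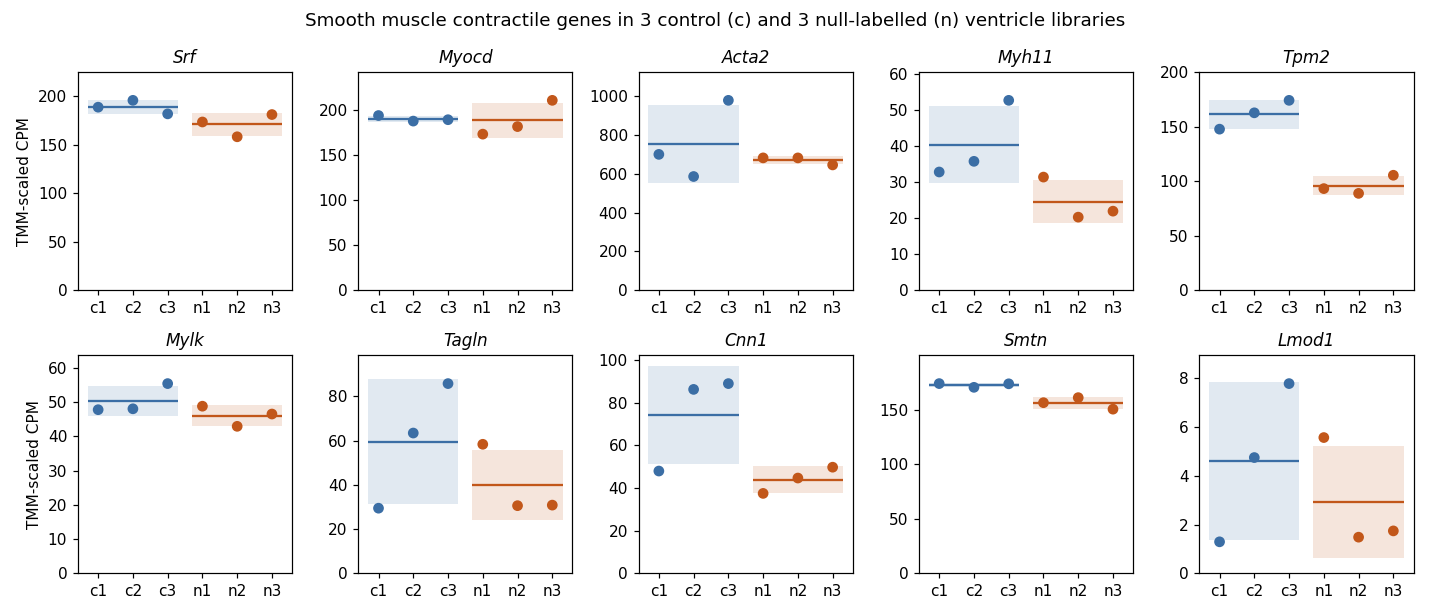
Level in CPM (vertical axis, from 0) of the 10 genes in control libraries c1 to c3 and null-labelled libraries n1 to n3 (horizontal axis); points are libraries, lines group means and bands 1 SD. Tpm2 shows 148 to 174 CPM in controls and 88.9 to 106 in null-labelled libraries, while Tagln and Lmod1 overlap widely.

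Neither regulator passed the test. Srf (GRCm38 chromosome 17, 46548329 to 46556175) had 188, 195 and 182 CPM in controls and 173, 158 and 181 CPM in null-labelled libraries, and the groups were separate by less than 1 CPM. Its log2 fold change was −0.14 ± 0.05 (95% interval −0.26 to −0.026), which did not pass over all genes (adjusted p = 0.154) or in any of the 19 alternatives. Myocd, the gene of myocardin (chromosome 11, 65176561 to 65269989), had 194, 188 and 189 CPM in controls and 173, 181 and 211 CPM in null-labelled libraries. The null-labelled values fell on both sides of the controls, and the log2 fold change was −0.013 ± 0.067 (95% interval −0.17 to 0.14, adjusted p = 0.939).

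Tpm2, which encodes beta-tropomyosin, a coiled coil that lies along actin filaments in smooth and skeletal muscle, showed the clearest difference (GRCm38 chromosome 4, 43514711 to 43523765, minus strand). It had 148, 163 and 174 CPM in controls 1 to 3 and 93.3, 88.9 and 106 CPM in null 1 to 3. All null-labelled libraries lay below all controls. The level was 1.69-fold lower (95% interval 1.48 to 1.92), or −0.75 ± 0.08 (SE) on the log2 scale (edgeR adjusted p = 0.00528). Tpm2 was called in all 19 alternatives run, with log2 fold changes from −0.86 to −0.64 and adjusted p of at most 0.0364, the highest being without null 1 and null 3. None of its 50-base words occurred in the transcripts of another annotated gene, other tropomyosin genes included. Skeletal muscle also uses Tpm2. Of 10 skeletal muscle markers 4, Myod1, Myf5, Myf6 and Pax7, had at most 3 counts in every library, and of the 6 tested 5 lay above 0 and 1, Acta1, below, with 0 called and 0 at an unadjusted p under 0.05 in edgeR, DESeq2 and limma-voom also calling 0. The summed level of the 10 was 54.9 to 98.3 CPM in controls and 53.5 to 70.03 CPM in null-labelled libraries. Acta1, which heart muscle also expresses, made up most of that sum, and the part of these markers in the Tpm2 result was not tested.

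Among the other tropomyosin genes, Tpm1, the main form of heart muscle, stood at 4037 to 4173 CPM in controls and 3711 to 3878 CPM in null-labelled libraries, with a log2 fold change of −0.10 ± 0.04 (adjusted p = 0.168). Tpm4, a cytoskeletal form, fell by 0.24 on the log2 scale (adjusted p = 0.0404), though the call was lost in 10 of 19 alternatives. Tpm3, named after its values were seen, had 48.5 to 58.3 CPM in controls and 43.3 to 54.4 CPM in null-labelled libraries and a log2 fold change of −0.039 (adjusted p = 0.891). Whether the Tpm2 difference exceeded that of the other tropomyosin genes was not tested.

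The smooth muscle myosin gene Myh11 is the member most restricted to mature smooth muscle (chromosome 16, 14194535 to 14291372). It had 32.8, 35.7 and 52.6 CPM in controls and 31.4, 20.2 and 21.9 CPM in null-labelled libraries. Null 1 lay just under control 1, so the groups were separate by a narrow margin. The log2 fold change was −0.72 ± 0.27 (95% interval −1.43 to −0.0017, adjusted p = 0.244), so the difference did not pass. It did not pass in any of the 19 alternatives, where estimates ran from −0.99 without null 1 and null 3 to −0.36 in male libraries only.

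Acta2, the most abundant member (chromosome 19, 34241090 to 34255590), had 701, 587 and 980 CPM in controls and 683, 683 and 647 CPM in null-labelled libraries. The null-labelled values were close together and lay inside the range of the controls, whose spread came mainly from control 3. The log2 fold change was −0.17 ± 0.20 (95% interval −0.68 to 0.34, adjusted p = 0.704), and it was 0.058 without control 3. The interval does not show that the groups were alike.

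Actin genes are near copies in their coding sequence, so the sharing of reads was checked. Only 0.326% of the 50-base words of Acta2 occurred in another gene's transcripts, and 0% of those of Actc1 and Actg2. Actc1, the cardiac actin gene, fell by 0.18 on the log2 scale (adjusted p = 0.0401; the call was lost in 8 of 19 alternatives). Actg2, the enteric smooth muscle actin gene, had 6.89, 8.17 and 12.7 CPM in controls and 5.17, 3.41 and 4.45 CPM in null-labelled libraries. These groups did not overlap, but the log2 fold change of −1.08 ± 0.26 did not pass (adjusted p = 0.0711), although it passed without control 1 (adjusted p = 0.0409), without control 3 (adjusted p = 0.0329) and with DESeq2. For Acta1, the skeletal actin gene, the log2 fold change was −0.67 (adjusted p = 0.273, and 0.00355 without control 1), and the cytoskeletal genes Actb and Actg1 had −0.17 and −0.31 (adjusted p = 0.0918 and 0.229). The groups of Actb did not overlap, and DESeq2 called it (DESeq2 adjusted p = 0.0272). Actb shared 9.12% of its words with other genes. Actg1 shared 37.4% of its words with other genes, so its level is uncertain; without null 3 its adjusted p was 0.0496.

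Mylk encodes the kinase that starts smooth muscle contraction (chromosome 16, 34745210 to 35002420), and its levels were 47.8, 48.0 and 55.4 CPM in controls and 48.8, 42.9 and 46.5 CPM in null-labelled libraries. The groups overlapped, and the log2 fold change of −0.13 ± 0.07 did not pass (adjusted p = 0.339).

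Smtn encodes smoothelin, an actin-binding protein of contractile smooth muscle cells (chromosome 11, 3517523 to 3540612). Its levels were 174, 170 and 174 CPM in controls and 156, 161 and 150 CPM in null-labelled libraries. The groups did not overlap, and the controls lay within 1.02-fold of each other. The fall was small, 1.11-fold, with a log2 fold change of −0.15 ± 0.04 and adjusted p = 0.0455. The call was lost in 13 of 19 alternatives, including the omission of any single library (adjusted p from 0.0673 to 0.167) and of null 1 and null 3 together (adjusted p = 0.623), while the estimate stayed between −0.17 and −0.10. An antisense transcript, Gm11946, covers 16.3% of Smtn exon bases in GENCODE M21 and is not among the genes of the files; the strand setting of the counting is not given in the sources used here, so reads from the antisense transcript could have been counted for Smtn.

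The other 3 filament-associated members varied widely between libraries of the same group. Tagln, the gene of the actin-binding protein SM22 alpha (chromosome 9, 45929619 to 45936058), had 29.5, 63.4 and 85.7 CPM in controls and 58.3, 30.6 and 30.8 CPM in null-labelled libraries. Control 1 was the lowest of all 6 libraries and null 1 nearly as high as control 2. The log2 fold change was −0.57 ± 0.53 (95% interval −2.01 to 0.87, adjusted p = 0.632); it was −0.95 without null 1, −0.21 without control 3 and −0.052 in male libraries only. In GENCODE M21 an antisense transcript, Gm48529, covers 62.4% of Tagln exon bases, so the level of Tagln is uncertain for the same reason as that of Smtn.

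Lmod1, which encodes leiomodin, a nucleator of actin filaments in smooth muscle (chromosome 1, 135324807 to 135368065), was the least abundant member, with 57, 171 and 275 counts in controls and 224, 54 and 72 counts in null-labelled libraries. These equal 1.30, 4.75 and 7.78 CPM and 5.57, 1.49 and 1.74 CPM, so the highest library of each group exceeded the lowest 6.01-fold and 3.75-fold. The order of the libraries was nearly that of Tagln, with control 3, null 1 and control 2 highest and control 1 lowest. The log2 fold change was −0.63 ± 0.88 (95% interval −2.97 to 1.71, adjusted p = 0.761); it was −1.49 without null 1, −0.013 without control 3 and 0.29 in male libraries only.

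Cnn1, the gene of calponin, which restrains actomyosin activity (chromosome 9, 22099216 to 22109630), had 48.0, 86.3 and 89.0 CPM in controls and 37.5, 44.7 and 49.8 CPM in null-labelled libraries. Only control 1 overlapped the null-labelled range. The log2 fold change was −0.76 ± 0.29 (95% interval −1.53 to 0.020, adjusted p = 0.253), a size like that of Tpm2 with a far wider interval. Without control 1 Cnn1 was called, at −0.99 (adjusted p = 0.0104); it passed in no other alternative.

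**Figure D2:**
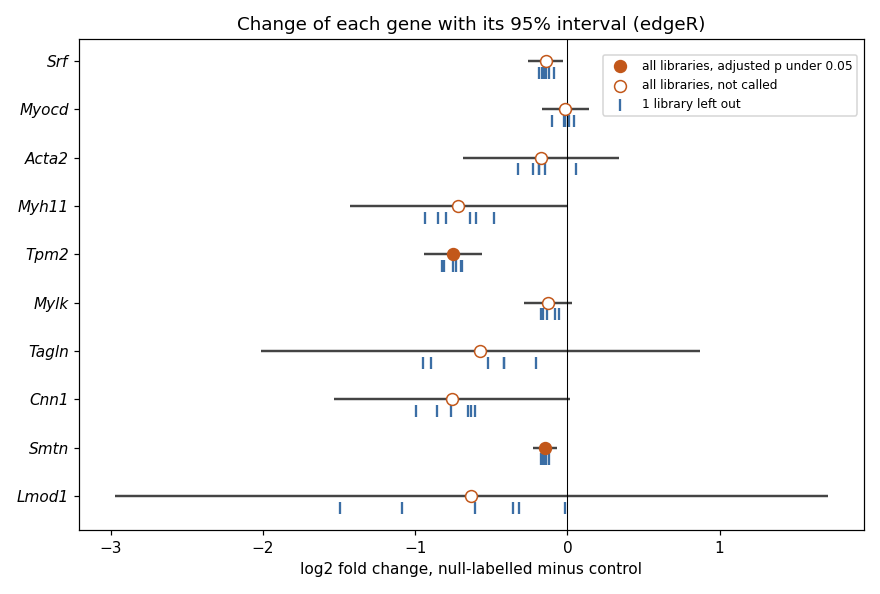
Log2 fold change of each gene, null-labelled minus control (horizontal axis), with its 95% interval as a line; filled circles have an adjusted p under 0.05, and blue ticks are estimates with 1 library left out. Tpm2 at −0.75 has a narrow interval, while the interval of Lmod1 runs from −2.97 to 1.71.

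The libraries of a group were not alike for these genes. The SD as a percentage of the mean was 70.4% for Lmod1, 47.6% for Tagln, 30.8% for Cnn1, 26.8% for Acta2 and 26.6% for Myh11 in controls, where the median over all genes tested was 6.01%. For Smtn, Myocd and Srf it was 1.11%, 1.69% and 3.70%. Control 3 held the highest value of all 6 libraries for 7 members, Acta2, Myh11, Tpm2, Mylk, Tagln, Cnn1 and Lmod1, and control 1 the lowest value among controls for 6. Among null-labelled libraries, null 1 was highest for 5 members and null 2 lowest for 6. Control 3 and null 2 were also the libraries called female, and the part of sex in this spread was not tested.

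The summed level of large vessel wall markers moved with part of this pattern. Their list of 8 genes, which includes Eln and the elastic fibre gene Fbln5, summed to 1546, 2576 and 3841 CPM in controls 1 to 3 and to 2743, 1812 and 1828 CPM in null 1 to 3. This is the order of Tagln, Lmod1, Myh11, Tpm2, Mylk and Cnn1 in the controls, and not that of Srf, Myocd, Smtn and Acta2. In both groups the library highest in the sum was highest in Tagln, Lmod1, Myh11, Mylk and Acta2. For Acta2, null 1 and null 2 were nearly level, and for Cnn1 null 1 was the lowest. Eln alone had 264, 1162 and 2099 CPM in controls 1 to 3 and 1079, 327 and 313 CPM in null 1 to 3. Much of the difference between libraries in the sum thus came from this gene. Of the 8 genes edgeR called 0 (1, Tbx20, which was higher, had an unadjusted p under 0.05), limma-voom 0 and DESeq2 1, Tbx20. For Tpm2 the controls ran in the order of Eln, from control 1 at 148 CPM to control 3 at 174 CPM, whereas null 1, with Eln at 1079 CPM, had 93.3 CPM of Tpm2, between the other null-labelled libraries. The part of these markers in the results for Tpm2, Tagln, Lmod1, Cnn1, Acta2, Mylk and Myh11 was not tested.

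**Figure D3:**
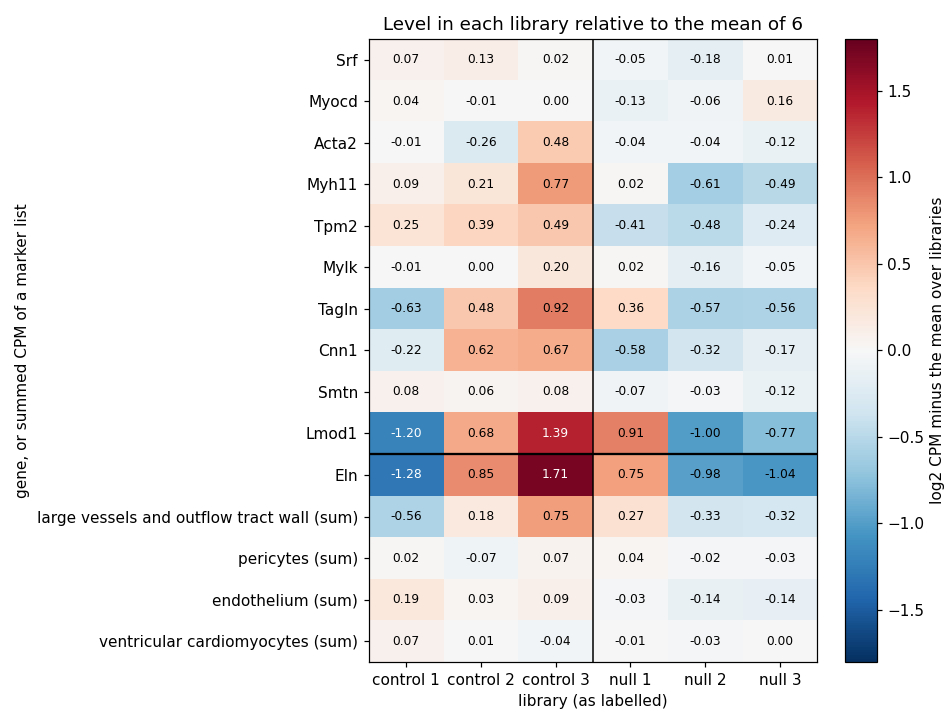
Level of each gene, or summed level of a marker list, in each library as log2 CPM minus its mean over the 6 libraries (colour and number); rows are the 10 genes above the line and Eln and marker lists below it. Lmod1 and Eln share high values in controls 2 and 3 and null 1, and pericyte and heart muscle sums differ from their means by at most 0.07.

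Markers of other cell types were summed in the same way. Over all genes tested, 5.41% were called, 2.98% as lower and 2.43% as higher. The pericyte list of 12 genes, mural cells that share many genes with smooth muscle, summed to 1534 to 1692 CPM in controls and 1578 to 1658 CPM in null-labelled libraries. Of the 12 genes, 1 fell (Cspg4, by 0.21 on the log2 scale), 11 did not pass, and 7 had estimates above 0. The 10 endothelial markers summed to 1530 to 1703 CPM in controls and 1353 to 1460 CPM in null-labelled libraries, with no overlap, and 5 fell. The 10 fibroblast markers summed to 7053 to 8362 CPM in controls and 8755 to 9755 CPM in null-labelled libraries, also with no overlap, and 3 rose. Endothelial and fibroblast sums thus differed in opposite directions. Of 8 macrophage markers 5 rose, with sums of 76.1 to 87.2 CPM and 97.1 to 121 CPM. The 7 atrial markers summed to 1163 to 1519 CPM and 635 to 1145 CPM, of which edgeR called 0 (1 at an unadjusted p under 0.05), limma-voom 0 and DESeq2 1, Nppa. Of these 7 markers 4 lay above 0 and 3 below, with a median log2 fold change of 0.098, so the lower sums do not describe most of the list. Of 9 epicardial markers 2 fell, and the 7 red cell markers tested all lay below 0, with 0 called in edgeR (2 at an unadjusted p under 0.05), 0 in limma-voom and 2 in DESeq2. The 11 vascular and visceral smooth muscle markers, which include members, summed to 2046 to 2269 CPM and 1895 to 1946 CPM, with 1, Smtn, called. The part of these shifts in the results for the members was not tested.

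A search of 9793 genes averaging 10 CPM or more gave those whose within-group deviations were most like the mean of the 10 members: Cd276, Apcdd1, Hnrnpc, Col5a2 and Mfap4. Their likeness, a Pearson coefficient over 6 libraries after removal of the group means, was 0.999, 0.997, 0.996, 0.996 and 0.995, given as a description. Being the highest of 9793 over so few libraries, these coefficients alone do not show a link with the members. Among the members, the same coefficient with the mean of the other 9 was 0.946 for Tagln, 0.912 for Lmod1, 0.873 for Myh11 and 0.847 for Mylk, and −0.339 for Myocd, −0.158 for Smtn and −0.005 for Srf. Such means follow mostly the members that varied most. In control 1 the log2 deviation was −1.25 for Lmod1 and −0.87 for Tagln, against 0.010 for Smtn.

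Outside the 10 members, 116 further genes of 7 lists around SRF were tested. Of these, 14 fell, 2 rose and 100 did not pass, so 13.8% were called, against 5.41% of all genes tested. Like the members, these lists were chosen with earlier results of these data known, so the shares are a description only. The median log2 fold change was −0.045, and 62.9% lay below 0, against 51.2% of all genes tested. The number called was 4 without null 2, 4 without null 3, 9 without control 2, 8 with a term for the replicate number, 5 in male libraries only and 3 without null 1 and null 3. Of the 16 calls 15 were lost without null 1 and null 3 (adjusted p from 0.0564 to 0.515), and only that of Nppb was kept.

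Among 16 cofactors and partners of SRF, 1 fell. Elk3, a ternary complex factor that binds beside SRF and is abundant in endothelium, had 96.3, 95.1 and 99.96 CPM in controls and 81.3, 77.4 and 79.5 CPM in null-labelled libraries (log2 fold change −0.29 ± 0.04, adjusted p = 0.00448; 0.119 without null 1 and null 3). The actin-sensing cofactors Mrtfa and Mrtfb had log2 fold changes of −0.046 and −0.045 and did not pass (adjusted p = 0.66 and 0.568).

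Of 29 other contractile and adhesion genes 4 fell and 25 did not pass. Cav1, the caveolin gene of smooth muscle and endothelial membranes, had 749, 656 and 728 CPM in controls and 513, 451 and 470 CPM in null-labelled libraries, with no overlap (log2 fold change −0.57 ± 0.06, adjusted p = 0.00217; 0.0564 without null 1 and null 3). Cnn2, a calponin of many cell types, fell by 0.30, the scaffold gene Pdlim7 by 0.33 and Flna, which encodes the actin crosslinker filamin, by 0.23 on the log2 scale (adjusted p = 0.0123, 0.0233 and 0.0320). Their calls were lost in 4, 8 and 6 of 19 alternatives.

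Of 25 genes that regulate smooth muscle contraction 3 fell, 1 rose and 21 did not pass. Among the genes that fell were Ppp1r12c, a myosin phosphatase subunit, by 0.20 and Myl12a, a myosin regulatory light chain gene, by 0.19 on the log2 scale (adjusted p = 0.0248 and 0.0417). Prkg1, the cyclic GMP-dependent kinase that relaxes smooth muscle, rose by a log2 fold change of 0.24 (adjusted p = 0.0424). The calls of Ppp1r12c, Myl12a and Prkg1 were lost in 6, 7 and 8 of 19 alternatives.

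Among the 7 pathway lists, that of cytoskeletal genes under myocardin-related cofactors had the lowest median. Of its 20 genes 18 lay below 0, 13 had an unadjusted p under 0.05 as lower (10.9% of all genes did), 4 fell and 16 did not pass. Pfn1, the gene of the actin monomer-binding protein profilin, fell by 0.17 and Itga5, an integrin gene, by 0.15 (adjusted p = 0.0282 and 0.0444), calls lost in 8 and 10 of 19 alternatives, and Flna and Tpm4 fell as given above. The median of the list was −0.14, against −0.0040 over all genes tested. The growth factor gene Ccn2, named after its values were seen, had 157, 163 and 174 CPM in controls and 119, 82.2 and 104 CPM in null-labelled libraries and did not pass in edgeR (adjusted p = 0.0599), though DESeq2 and limma-voom called it.

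Immediate early genes, which SRF drives through ternary complex factors, had 0 of 10 called in edgeR (2 had an unadjusted p under 0.05; DESeq2 and limma-voom also called 0), with log2 fold changes of −0.26 for Ier2 and −0.67 for Egr3 (adjusted p = 0.061 and 0.182). Of 14 cardiac genes under SRF 2 fell, Nppb, the natriuretic peptide gene, by 0.98 on the log2 scale (adjusted p = 0.00424) and Actc1 as given above, and the median was 0.013. DESeq2 called 5 of the 14 and limma-voom 2. The further DESeq2 calls, named after their values were seen, were Nppa, another natriuretic peptide gene, with a log2 fold change of −1.35 and no overlap (edgeR adjusted p = 0.107), and the calcium handling genes Atp2a2 and Ryr2, at 0.20 and 0.23 (edgeR adjusted p = 0.0784 and 0.0577). Of 10 repressors of the contractile programme 2 fell, Elk3 and the growth factor gene Pdgfb (log2 fold change −0.33, adjusted p = 0.0165), and 1 rose, Hey2, a Notch-dependent repressor that is also a marker of compact ventricular muscle (log2 fold change 0.22, adjusted p = 0.00991). The call of Pdgfb was lost without null 2 (adjusted p = 0.0632), without null 3 (0.0546) and in male libraries only (0.062), and that of Hey2 without null 2 (0.0532) and without null 3 (0.0517).

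**Figure D4:**
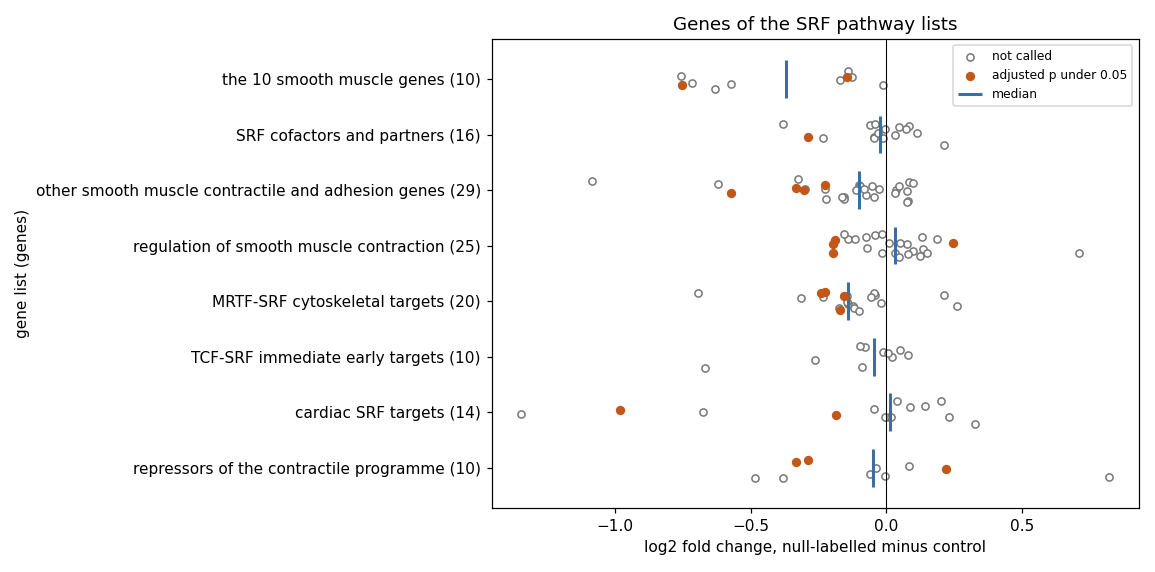
Log2 fold change, null-labelled minus control (horizontal axis), of each tested gene in the lists around SRF (rows, number of genes in brackets; members shown in the top row only); filled points have an adjusted p under 0.05 and bars are list medians. The medians are −0.37 for the 10 members and −0.14 for the cytoskeletal targets, and near 0 for the cofactors.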

How the data were processed

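RNA sequencing counts of 6 ventricle libraries, 3 control and 3 null-labelled, were used as deposited. Each deposited table lists raw whole-number counts for Ensembl genes. The submitters' processing notes name build mm10 and, among tools, HTSeq 0.6.1p1, STAR, DESeq2 and cutadapt 1.13; the role of each tool, the annotation release and whether counting used strand were not given in the sources used here. GENCODE M21 of the same build gave symbols and coordinates for 24991 of 25006 identifiers.

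With R 4.3.3, genes were filtered by filterByExpr, scaled by the trimmed mean of M values and compared in edgeR 4.0.16 (glmQLFit with robust set, then glmQLFTest, two-sided) on group alone, with Benjamini-Hochberg adjustment over all genes tested. Every adjusted p is from this test unless another is named, and a gene was called at an adjusted p under 0.05. Standard errors and 95% intervals were derived from that test's statistic. The script was tested on simulated counts of 14815 genes. It recovered 50%, 78%, 94% and 98% of 50 genes each that were changed 1.2-fold, 1.5-fold, 2-fold and 3-fold. Among the unchanged genes it made 23 false calls, and small changes were thus often missed.

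Total counts of 35195544 to 44330594 make 3 counts equal to 0.0677 to 0.0852 CPM. Same-numbered libraries of the 2 groups did not deviate together, so replicate numbers were not treated as pairs. The members and lists, and the rule for named genes (the 10 members, up to 4 called genes of smallest p per pathway list or the 2 of smallest p, the actin genes, Prox1, and the 5 genes most like the members), were chosen with earlier results of these data known. Alternatives used DESeq2 1.42.0, limma-voom (limma 3.58.1), other scalings and filters, left-out libraries, replicate and sex terms, and a threshold of 0.1. The values of 1 gene that this rule names are not reported here.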

Additional observations from a re-analysis of the deposited data

How the results depend on the processing

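Tpm2 was called, and lower, in all 19 alternatives. The number of members called, 2 with all libraries, was 1 (Tpm2 alone) with median-ratio scaling, upper quartile scaling, limma-voom, a replicate block, a sex term, male libraries only, and without null 1 and null 3; it ranged from 1 to 2 with 1 library left out. The number of pathway genes called, 16 with all libraries, was 26 with DESeq2, 25 at a threshold of 0.1, 8 with the replicate block, 5 in male libraries only, 3 without null 1 and null 3, and 4 to 17 with 1 library left out. Over all genes, 801 calls became 1430 at a threshold of 0.1, 461 in male libraries only, 52 without null 1 and null 3, where 1 null-labelled library is assumed to vary like the controls, and 258 to 942 with 1 library left out. Fewer libraries enter the fits with libraries left out and the male-only fit; for the other settings the cause was not tested. Signs changed, in each case without a call, for Myocd (0.0089 in male libraries only, and from −0.10 to 0.044 with 1 library left out), Acta2 (0.046 in male libraries only, and from −0.33 to 0.058 with 1 library left out) and Lmod1 (0.29 in male libraries only). Same-numbered libraries had deviations from their group means with coefficients of −0.0391, −0.129 and −0.19 over 13171 genes, so the numbers give no pairing, and the replicate block is only a check; it made 570 calls over all genes. Of the members, Lmod1 had the fewest counts, 54 to 275 in a library.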
